A study of Mus musculus with 152 samples.

Results

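The Cyp2 family is the largest cytochrome P450 family of mouse liver, and its members were taken as every gene with a symbol made of Cyp2, a subfamily letter and a number, pseudogenes left out. Of 48 such symbols, 46 had a non-zero value, out of 54532 genes measured, and Cyp2j7 and Cyp2j12 were listed at 0 in every library. Liver RNA of C57BL/6J mice, an inbred laboratory strain, was sequenced in bulk after feeding with a purified control diet or with LIDPAD, a diet designed to bring on non-alcoholic fatty liver disease. Feeding started at 8 weeks of age in every group and lasted 1, 4, 8, 12, 16, 32 or 48 weeks. By the labels the 14 groups thus differed in diet and duration only, age at collection rising with duration. No label names an agent, a transgene, the sex of the animals or the hour of collection. The 152 deposited samples formed sets of 4 whose counts differed less within a set (a chi-square per gene of 1.97 to 2.27) than between sets (2.54 or more), and each set was counted as 1 library. This gave 2 control and 2 LIDPAD libraries at weeks 1, 4, 8 and 12, 3 and 3 at week 16, 4 and 5 at week 32, and 3 and 4 at week 48. No label says that libraries came from separate animals, so the p-values measure only the spread between libraries, which may be technical.

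Cyp2 enzymes are haem proteins of the endoplasmic reticulum that oxidise drugs, toxicants, steroids, fatty acids and arachidonic acid with electrons passed on by P450 oxidoreductase. In liver they are made chiefly by hepatocytes, several of them mainly in the cells around the central vein. The nuclear receptors CAR and PXR, together with HNF4A, C/EBP and the growth hormone to STAT5 pathway, are known regulators of the family, and growth hormone patterns give several mouse members a level that differs between the sexes.

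The 46 members fell into 13 subfamilies: 4 genes of Cyp2a, 5 of Cyp2b, 15 of Cyp2c, 8 of Cyp2d, 6 of Cyp2j and 1 each of Cyp2e, Cyp2f, Cyp2g, Cyp2r, Cyp2s, Cyp2t, Cyp2u and Cyp2w. In the GRCm38 annotation the Cyp2a, Cyp2b, Cyp2f and Cyp2g genes lie in a cluster on chromosome 7, with Cyp2a5 at chr7:26835305-26843548 on the plus strand and Cyp2f2 at chr7:27119909-27133660 on the plus strand. The Cyp2c genes are clustered on chromosome 19, with Cyp2c67 at chr19:39608842-39649051 on the minus strand, and the Cyp2d genes on chromosome 15, with Cyp2d9 at chr15:82433437-82456845 on the plus strand. Cyp2e1 lies at chr7:140763739-140774987 and Cyp2u1 at chr3:131288441-131303227.

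Neighbouring members are close copies, which limits how reads can be told apart. The coding sequences of Cyp2a4 and Cyp2a5 were 98.4% identical, those of Cyp2c40 and Cyp2c68 98.1%, those of Cyp2c40 and Cyp2c69 97.9%, and those of Cyp2a12 and Cyp2a22 97.0%. Another Cyp2 gene held an identical copy of 35.4% of the 100-base windows of Cyp2c69, 34.4% of Cyp2c40, 23.7% of Cyp2c67, 19.8% of Cyp2c68, 12.2% of Cyp2d11, 12.1% of Cyp2a5, 11.7% of Cyp2d10 and 11.2% of Cyp2a4. How the deposited counts split reads between these 8 genes is not given in the sources used here, so their separate values are uncertain, and sums over the copies are given beside them.

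The 150 bases before the RefSeq transcription start are printed for 8 members whose levels are described below: the nearly identical pair Cyp2a4 and Cyp2a5, the pair Cyp2b9 and Cyp2b10, the copies Cyp2c67 and Cyp2c69, and Cyp2d9 and Cyp2f2, which were lower late in feeding. The stretches are from RefSeq, build GRCm38.p6, at chr7:26307042-26307191 plus strand for Cyp2a4, chr7:26835189-26835338 plus for Cyp2a5, chr7:26173259-26173408 plus for Cyp2b9, chr7:25897508-25897657 plus for Cyp2b10, chr19:39649043-39649192 minus for Cyp2c67, chr19:39886770-39886919 minus for Cyp2c69, chr15:82452227-82452376 plus for Cyp2d9 and chr7:27119805-27119954 plus for Cyp2f2. Capitals mark the letters TTGCATAA, of the type bound by C/EBP and PAR bZIP factors, or CAAAGNNCA, of the type bound by HNF4.
Cyp2a4: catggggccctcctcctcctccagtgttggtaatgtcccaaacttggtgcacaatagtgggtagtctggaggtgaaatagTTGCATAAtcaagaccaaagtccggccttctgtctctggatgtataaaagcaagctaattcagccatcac
Cyp2a5: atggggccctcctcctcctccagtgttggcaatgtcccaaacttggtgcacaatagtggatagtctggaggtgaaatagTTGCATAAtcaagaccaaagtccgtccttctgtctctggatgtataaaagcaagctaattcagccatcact
Cyp2b9: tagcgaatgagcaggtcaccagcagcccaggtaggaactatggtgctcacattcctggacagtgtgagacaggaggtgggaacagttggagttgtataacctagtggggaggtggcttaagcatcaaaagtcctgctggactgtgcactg
Cyp2b10: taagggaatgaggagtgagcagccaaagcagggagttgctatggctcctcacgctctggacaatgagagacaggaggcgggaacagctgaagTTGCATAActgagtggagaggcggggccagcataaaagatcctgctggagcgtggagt
Cyp2c67: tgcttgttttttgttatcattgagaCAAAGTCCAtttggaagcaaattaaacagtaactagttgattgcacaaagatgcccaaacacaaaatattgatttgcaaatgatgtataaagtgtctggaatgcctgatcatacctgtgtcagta
Cyp2c69: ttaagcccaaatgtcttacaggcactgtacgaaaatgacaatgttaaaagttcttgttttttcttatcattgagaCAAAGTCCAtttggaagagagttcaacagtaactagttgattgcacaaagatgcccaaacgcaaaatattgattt
Cyp2d9: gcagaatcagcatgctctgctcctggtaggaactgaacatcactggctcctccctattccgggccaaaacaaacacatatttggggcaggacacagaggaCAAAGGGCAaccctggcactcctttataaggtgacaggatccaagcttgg
Cyp2f2: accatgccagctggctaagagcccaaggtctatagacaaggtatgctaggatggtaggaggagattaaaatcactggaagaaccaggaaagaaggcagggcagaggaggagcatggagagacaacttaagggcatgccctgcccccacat

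At least 1 RefSeq promoter was found for 39 of the members, and the 250 upstream bases of each promoter were searched on both strands. A member was counted if any of its promoters held the letters. The shares of all are of single promoters, so members with several promoters are favoured. CAAAGNNCA was present in 15 members (38.5%), among them Cyp2a22, Cyp2c40, Cyp2c67, Cyp2c68, Cyp2c69, Cyp2c70, Cyp2d9 and Cyp2d10, against 5.49% of all 32851 promoters. TTGCATAA was present in 5 (12.8%), namely Cyp2a4, Cyp2a5, Cyp2b10, Cyp2b19 and Cyp2b23, against 0.694% of all. The letters TATAAA were present in 18 (46.2%) against 12.4% of all, and TTCNNNGAA, of the type bound by STAT5, in Cyp2j11 (2.56%) against 7.02% of all. These letters describe the promoters and do not show binding. Copies share these stretches, so members are not independent: the 250 upstream bases of Cyp2b9 and Cyp2b13 were identical at 248 positions, those of Cyp2a4 and Cyp2a5 at 245 of 249 aligned, and those of Cyp2c68 and Cyp2c69 at 232 of 246.

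The deposited unit was FPM, reads of a gene scaled by a size factor and given per 1000000. Whole reads could be recovered from it, and library depth was 10.9 to 53.8 M reads, where M stands for 1000000, with a median of 29.0 M. Over genes that are no members, 3 libraries stood apart by the number of genes over 4-fold from their group median, which was 372 in week 48 control library 3, 274 in week 32 LIDPAD library 1 and 141 in week 32 LIDPAD library 2, against 1 to 102 in the others. Results of weeks 32 and 48 are therefore given with and without them. Y-linked Ddx3y lay at 39.6 to 120.0 FPM in all 38 libraries and Xist at no more than 0.865 FPM.

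Compared per length of transcript, as the median of 18 control libraries, Cyp2e1 had the highest level at 1358 FPM per kb, 5.42 times that of Cyp2d10 at 250.7 FPM per kb. Cyp2e1 oxidises ethanol, acetone and fatty acids and is a classical marker of the cells around the central vein. Cyp2d26, Cyp2j5, Cyp2d9, Cyp2c70, Cyp2c29, Cyp2c67, Cyp2c50 and Cyp2f2 followed between 219.6 and 112 FPM per kb, and neighbours in this order overlapped in their ranges over control libraries. In all, 10 members were over 100 FPM per kb and 24 over 10, while the close copies Cyp2a5 and Cyp2a4 were far apart, at 35.1 and 1.96 FPM per kb. At the low end, 9 members were under 1 FPM in every library: Cyp2b19, Cyp2b23, Cyp2c65, Cyp2c66, Cyp2j8, Cyp2j11, Cyp2j13, Cyp2t4 and Cyp2w1.

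LIDPAD was compared with control within each week, a member being tested where the number of libraries with 1 FPM or more was at least the size of the smaller group. The test was limma on log2(FPM + 0.5), two-sided, and a gene was called where the p-value adjusted over all genes tested was under 0.05. Log2 differences below are LIDPAD minus control ± SE on this scale, which understates the change of low genes, and every adjusted p is from limma. By this rule 31 members were tested in every week, Cyp2b9 and Cyp2b13 in some weeks, and 13 in none. Those 13 are the 9 above and Cyp2b10, Cyp2d34, Cyp2g1 and Cyp2s1.

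The Cyp2 calls went from a few higher genes to many lower genes as feeding went on, while the libraries per group rose from 2 to between 3 and 5. Counts of different weeks therefore also differ in the power of their tests. In bulk RNA, fewer cells of a type and less RNA per cell cannot be told apart. At week 1, 2 of 31 tested members were called, both higher, where 1.99% of all genes tested were called, 0.726% higher. At week 4 none of 31 was called, with 0.287% of all genes called, while 5 members had an unadjusted p under 0.05 and edgeR called 0 members (0.302% of all genes) and DESeq2 2 (2.33%). At week 8, 4 of 32 were called, all higher (5.6% of all genes called, 3.85% higher). None of the week 1 and week 8 calls was kept whichever library was left out.

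From week 12 the calls ran in both directions. At that week 7 members were higher and 7 lower of 32, where 15.2% of all genes were called, 8.99% higher and 6.25% lower. At week 16, 7 were higher and 17 lower, so that 75% of the 32 tested members were called against 28.2% of all genes, where 16.3% of all genes were higher and 12.0% lower. At week 32, 4 were higher and 11 lower of 32, or 46.9% against 26.9% of all genes called, with 18.0% of all genes higher and 8.82% lower. At week 48, 3 were higher and 8 lower of 33, or 33.3% against 9.87% of all genes called, with 6.54% of all genes higher and 3.34% lower.

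The median log2 difference over the tested members was 0.07, 0.22, 0.10, -0.05, -0.52, -0.81 and -0.54 from week 1 to week 48, against medians of -0.01 to 0.04 over all genes tested. Over all weeks 8 members were called higher at least once and 21 lower at least once, with Cyp2c37 in both counts, and no member was called lower in week 1, 4 or 8. Cyp2d10, Cyp2d11 and Cyp2f2 were called lower in each of weeks 16, 32 and 48, and Cyp2c50, Cyp2c55, Cyp2e1, Cyp2j6 and Cyp2b13 were tested but never called.

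Scaling bears on these splits. When each library was rescaled to a total of 1000000, the median of all genes moved up by 0.11, 0.19, 0.20, 0.29 and 0.26 on the log2 scale at weeks 8, 12, 16, 32 and 48. The share of higher genes among all genes called was 68.8, 58.999, 57.6, 67.2 and 66.2% at those weeks as deposited and 84.5, 82.7, 83.1, 91.8 and 93.8% after rescaling. Among the members, higher and lower calls after rescaling were 7 and 0 at week 8, 9 and 6 at week 12, 7 and 16 at week 16, 8 and 9 at week 32, and 3 and 7 at week 48. Rescaled, 6.52, 13.8, 28.3, 28.4 and 19.3% of all genes tested were called higher at those weeks and 1.19, 2.89, 5.74, 2.53 and 1.27% lower, and the members' median lay at -0.32, -0.51 and -0.26 at weeks 16, 32 and 48.

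**Figure D1:**
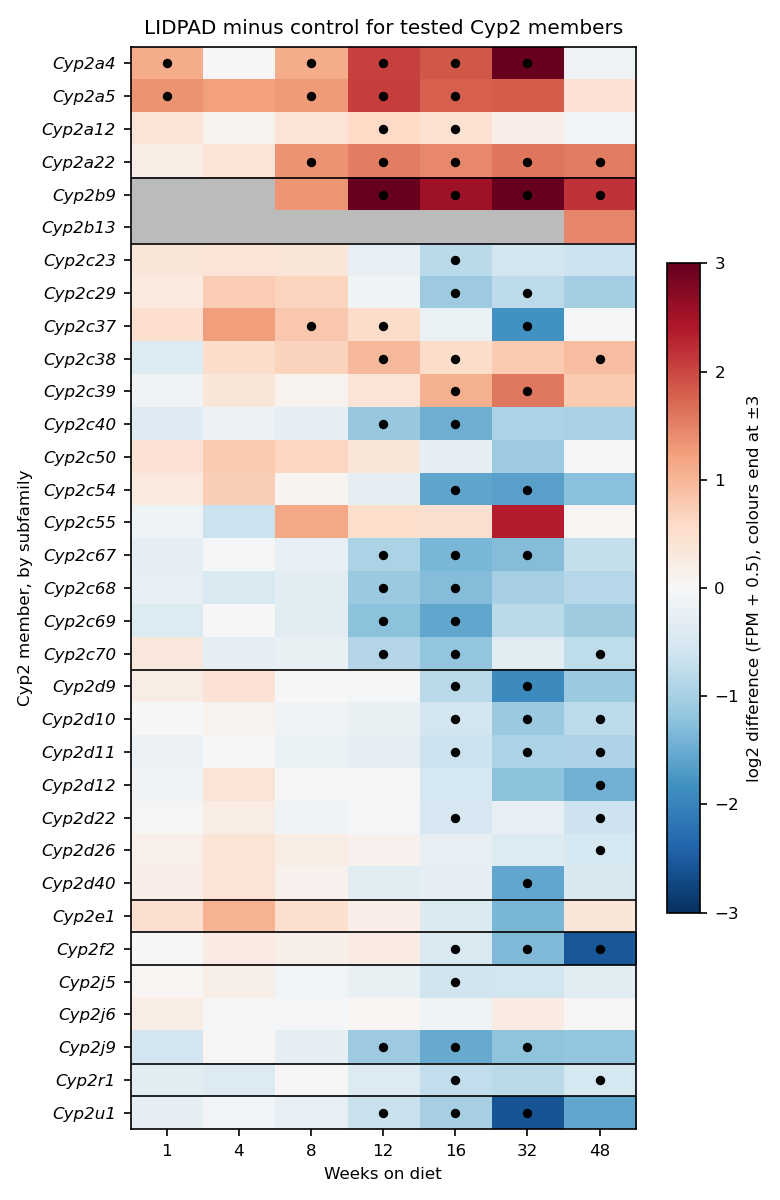
Log2 difference, LIDPAD minus control, of log2(FPM + 0.5) for the 33 members tested in any week (vertical axis, by subfamily) against weeks on diet (horizontal axis). Dots mark limma adjusted p under 0.05, grey cells were not tested, and colours end at ±3; Cyp2a and Cyp2b are red where most of Cyp2c and Cyp2d turn blue from week 16.

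Cyp2a members were the main higher group. All 4 tested Cyp2a genes were called higher at weeks 12 and 16, 3 at week 8, 2 at weeks 1 and 32, and 1 at week 48. Cyp2a5 is the coumarin 7-hydroxylase of mouse liver and a CAR target, and Cyp2a4 is the testosterone 15-alpha-hydroxylase, known to be higher in female liver.

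Cyp2a5 stood at 60.9 and 59.8 FPM in the week 1 control libraries and at 190.5 and 126 FPM in the LIDPAD libraries, with no overlap (log2 1.35 ± 0.18, adjusted p = 0.0171). At week 12 the controls were 86.8 and 65.2 FPM and the LIDPAD libraries 305 and 335 FPM (log2 2.08 ± 0.14, adjusted p = 6.37e-05). At week 16 the controls were 142, 246 and 147 FPM and the LIDPAD libraries 442.5, 608 and 781 FPM (log2 1.78 ± 0.23, adjusted p = 0.000227). In each of these weeks every LIDPAD library was above every control library.

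At week 32 Cyp2a5 was 52.7, 16.6, 73.1 and 70.4 FPM in control and 51.5, 228, 637, 127 and 128.5 FPM in LIDPAD (log2 1.83 ± 0.64, adjusted p = 0.0562). LIDPAD library 1 lay inside the control range and the other 4 above it, and without LIDPAD libraries 1 and 2 the difference was 2.23 ± 0.63 (adjusted p = 0.0283). At week 48 control library 3 was the highest of all 38 libraries, with 94.5, 199 and 1029 FPM in control and 290, 415, 431 and 323 FPM in LIDPAD (log2 0.42, adjusted p = 0.749). Without that control library the difference was 1.39 ± 0.25 (adjusted p = 0.0015).

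Cyp2a4 was called higher at weeks 1, 8, 12, 16 and 32, and Cyp2a5 at weeks 1, 8, 12 and 16. For Cyp2a4, week 12 values were 3.28 and 2.34 FPM in control and 13.5 and 12.8 FPM in LIDPAD (log2 2.06, adjusted p = 0.000228), and week 16 values 7.37, 9.76 and 6.24 against 27.6, 26.3 and 35.2 FPM (log2 1.87, adjusted p = 2.47e-05). At week 32 the controls were 2.06, 1.28, 3.02 and 2.21 FPM and the LIDPAD libraries 245, 23.2, 321, 6.61 and 9.67 FPM (log2 4.04 ± 1.05, adjusted p = 0.0154). All 5 LIDPAD libraries were above the controls, with libraries 1 and 3 far above the other 3, and without libraries 1 and 2 the difference was 3.47 ± 1.08 (adjusted p = 0.0407).

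At week 48 Cyp2a4 was 6.49, 9.09 and 616 FPM in control and 20.5, 52.6, 26.9 and 29.96 FPM in LIDPAD (log2 -0.16, adjusted p = 0.959). Control library 3 was above every other library, and without it the difference was 1.92 ± 0.29 (adjusted p = 0.000451). At week 4 Cyp2a4 also had 1 high control, at 1.49 and 11.9 FPM in control against 4.58 and 4.24 FPM in LIDPAD (log2 -0.02). Summed over the copies, Cyp2a4 and Cyp2a5 in LIDPAD were 2.61, 2.17, 2.44, 4.23, 3.44 and 6.43 times the control mean from week 1 to week 32, with no overlap of the groups in any of those weeks. At week 48 the mean sum was 651 FPM in control and 397 FPM in LIDPAD, with overlap. The overlap came from control library 3, whose sum was 1645 FPM. The other control sums, from 101 FPM, lay below the LIDPAD sums of 311 to 468 FPM.

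Cyp2a22 was called higher in every week from week 8 to week 48. Its week 16 values were 13.2, 9.04 and 8.49 FPM in control and 30.9, 29.1 and 25.3 FPM in LIDPAD (log2 1.45 ± 0.16, adjusted p = 8.89e-05). At week 32 it was 5.70, 3.57, 5.39 and 5.42 FPM in control and 17.5, 13.4, 12.2, 18.7 and 19.7 FPM in LIDPAD (log2 1.60 ± 0.19, adjusted p = 0.000224). At week 48 the controls were 7.77, 9.45 and 13.6 FPM and the LIDPAD libraries 25.2, 38.4, 29.2 and 31.1 FPM (log2 1.57 ± 0.20, adjusted p = 0.00885). The groups did not overlap from week 4 on, library 3 of the week 48 controls included, and at week 8 the difference was 1.35 (adjusted p = 0.0168).

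Cyp2a12, a steroid hydroxylase and the closest copy of Cyp2a22, moved less. It rose by 0.61 at week 12 (adjusted p = 0.0135) and by 0.45 at week 16 (adjusted p = 0.0266), where the controls were 298, 213 and 274 FPM and the LIDPAD libraries 327, 398 and 344 FPM. Both calls were lost on leaving out single libraries. At week 48 the ranges overlapped, at 229 to 272 FPM in control and 224 to 261 FPM in LIDPAD.

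Cyp2b9 is a CAR-responsive enzyme known to be higher in female liver, and it was below the filter at weeks 1 and 4. At week 12 it was 0.354 and 3.55 FPM in control and 25.3 and 10.0 FPM in LIDPAD (log2 3.15 ± 0.64, adjusted p = 0.0126). At week 48 it was 4.07, 2.79 and 17.7 FPM in control and 20.9, 46.3, 24.3 and 28.2 FPM in LIDPAD (log2 2.16 ± 0.55, adjusted p = 0.0466). The groups did not overlap in either week.

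At week 16 Cyp2b9 was 3.51, 1.29 and 5.18 FPM in control and 34.2, 4.86 and 43.1 FPM in LIDPAD (log2 2.54, adjusted p = 0.0148). At week 32 it was 4.77, 0, 0 and 0.418 FPM in control and 26.0, 0.625, 3.23, 18.7 and 19.8 FPM in LIDPAD (log2 3.01 ± 0.98, adjusted p = 0.0418). One LIDPAD library at week 16 and 2 at week 32 lay within the control range, DESeq2 did not call the differences of weeks 12, 32 and 48 nor edgeR those of weeks 32 and 48, leaving out single libraries ended the calls of weeks 16, 32 and 48, and with controls at 0 its size depends on the 0.5 FPM added.

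The other Cyp2b genes were near the limit of detection. Cyp2b10, the standard marker of CAR activation in mouse liver, was under 1 FPM except for 4.51 FPM in week 4 control library 2, 23.4 FPM in week 32 LIDPAD library 2 and 4.52 FPM in week 48 control library 3, and it was not tested. Cyp2b13 was tested at week 48, with 0, 0.257 and 5.53 FPM in control and 1.76, 6.52, 2.89 and 2.71 FPM in LIDPAD (log2 1.46). Without control library 3 the difference was 2.56 ± 0.38 (adjusted p = 0.000434).

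**Figure D2:**
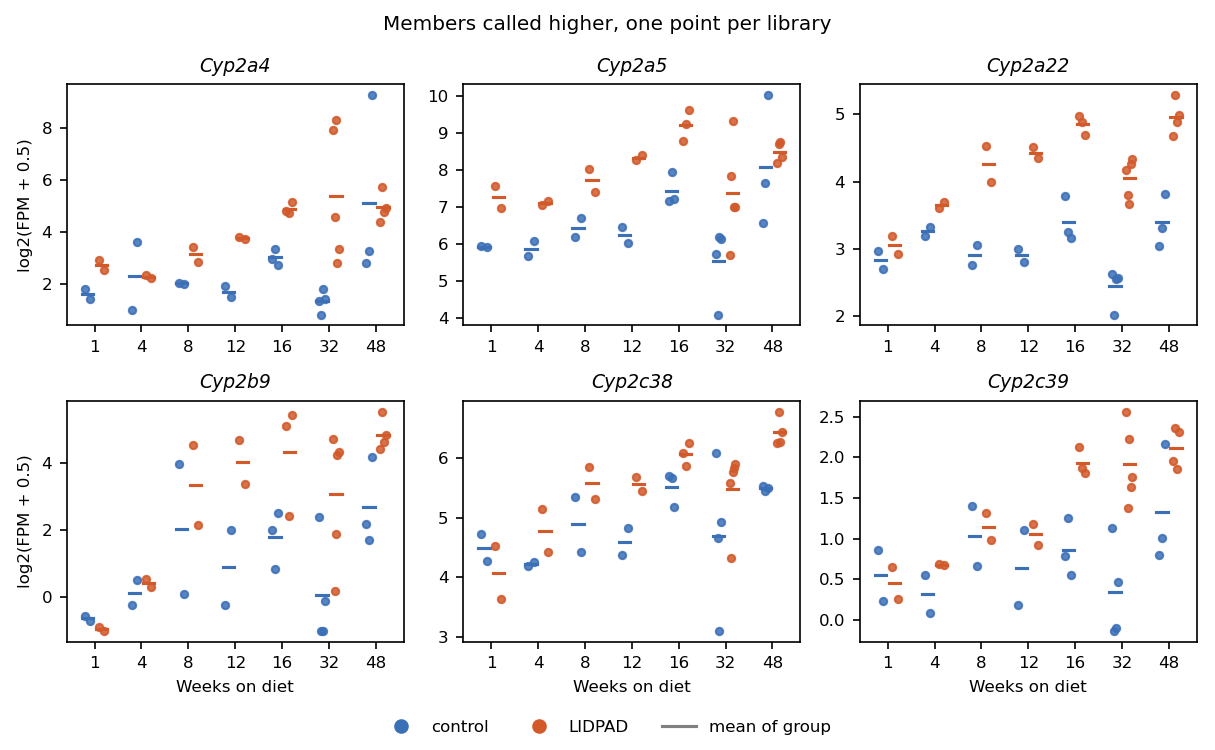
Level as log2(FPM + 0.5) (vertical axis) of 6 members called higher in at least 1 week, against weeks on diet; each point is 1 library, blue control and orange LIDPAD, and bars are group means. For Cyp2a22 the LIDPAD points lie above the control points from week 4 on, whereas Cyp2a4 and Cyp2a5 have 1 control point at week 48 above all others.

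Cyp2c genes split. Called higher and never lower were Cyp2c38 and Cyp2c39, arachidonic acid and retinoic acid metabolising enzymes that are 94.2% identical in coding sequence. Cyp2c37, described below, was also called higher at weeks 8 and 12. Cyp2c38 was 45.9, 43.0 and 44.8 FPM in control and 75.3, 109, 76.0 and 85.6 FPM in LIDPAD at week 48 (log2 0.93 ± 0.13, adjusted p = 0.0117), after calls at week 12 (0.96) and week 16 (0.55), the last lost without control library 3 or LIDPAD library 1 or 3 and that of week 48 without LIDPAD library 4. Cyp2c39 was 1.69, 0.414, 0.433 and 0.883 FPM in control and 5.41, 2.11, 4.20, 2.61 and 2.89 FPM in LIDPAD at week 32 (log2 1.57 ± 0.32, adjusted p = 0.00458), after a call at week 16 (1.07, adjusted p = 0.00428). In these weeks the groups did not overlap.

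The lower side of Cyp2c began at week 12 with the 4 copies Cyp2c40, Cyp2c67, Cyp2c68 and Cyp2c69, of which Cyp2c40 is known to oxidise arachidonic acid, and with Cyp2c70, which makes muricholic acid from chenodeoxycholic acid in the mouse. Cyp2c67 was 560, 458 and 367 FPM in control and 162, 191 and 176 FPM in LIDPAD at week 16 (log2 -1.37 ± 0.14, adjusted p = 6.04e-05). At week 32 it was 283, 298, 246 and 416.5 FPM in control and 134, 86.3, 162, 121.5 and 129 FPM in LIDPAD (log2 -1.29 ± 0.20, adjusted p = 0.00096). Both times every LIDPAD library was below every control library.

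Cyp2c69 was 32.7 and 22.8 FPM in control and 11.1 and 11.8 FPM in LIDPAD at week 12 (log2 -1.22, adjusted p = 0.00236), and 51.8, 35.7 and 25.0 against 10.3, 12.3 and 13.1 FPM at week 16 (log2 -1.56, adjusted p = 0.00035). At week 32 the controls were 26.2, 29.3, 16.1 and 33.5 FPM, and the LIDPAD libraries 143, 4.24, 9.25, 10.2 and 9.39 FPM (log2 -0.81, adjusted p = 0.488). LIDPAD library 1 was the highest of the 9 libraries and the other 4 LIDPAD libraries were the lowest.

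The same library was the highest at week 32 for Cyp2c40, at 188 FPM against 18.7 to 35.2 FPM in the other LIDPAD libraries, for Cyp2c68, at 264.5 against 48.4 to 104 FPM, and for Cyp2c70, at 454 against 155 to 199.7 FPM. Without LIDPAD libraries 1 and 2 the week 32 difference of Cyp2c40 was -1.31 ± 0.22 (adjusted p = 0.0024), of Cyp2c68 -1.15 ± 0.20 (adjusted p = 0.00254) and of Cyp2c69 -1.36 ± 0.22 (adjusted p = 0.00203). Summed, the 4 copies went from a control mean of 633 FPM to 302 FPM in LIDPAD at week 12 and from 854 to 323 FPM at week 16, a ratio of 0.379, with no overlap in either week. At weeks 32 and 48 the ratios were 0.547 and 0.531, and the groups overlapped.

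Cyp2c70 was 385 and 348 FPM in control and 192 and 203 FPM in LIDPAD at week 12 (log2 -0.89 ± 0.11, adjusted p = 0.00132). It was lower also at week 16 (-1.17, adjusted p = 0.000663) and week 48 (-0.77, adjusted p = 0.0283). At week 32, where controls were 179, 181, 447 and 402 FPM, the groups overlapped (log2 -0.37, adjusted p = 0.502).

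Cyp2c29, Cyp2c37, Cyp2c50 and Cyp2c54 are arachidonic acid epoxygenases or hydroxylases of the central vein region and CAR targets, and of them Cyp2c37 was called in both directions. None of its 3 calls was kept whichever library was left out, the calls of weeks 8 and 12 being lost without LIDPAD library 1 or 2, and that of week 32 without control library 1, 3 or 4 or LIDPAD library 3. Cyp2c37 was 102 and 135 FPM in control and 224 and 191 FPM in LIDPAD at week 8 (log2 0.82, adjusted p = 0.0364), and was higher again at week 12 (0.56, adjusted p = 0.0135). At week 32 it was 216, 84.3, 122 and 160 FPM in control and 43.4, 12.0, 25.4, 94.2 and 69.8 FPM in LIDPAD (log2 -1.81 ± 0.52, adjusted p = 0.0241). LIDPAD library 4 overlapped the controls there, and without LIDPAD libraries 1 and 2 the call was lost (-1.31 ± 0.43, adjusted p = 0.0509).

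Cyp2c54 was 258, 188 and 147 FPM in control and 33.1, 99.9 and 79.3 FPM in LIDPAD at week 16 (log2 -1.58 ± 0.33, adjusted p = 0.00481), with no overlap. At week 32 it was 83.0, 41.5, 114 and 149 FPM in control and 45.6, 21.9, 20.8, 36.5 and 21.8 FPM in LIDPAD (log2 -1.64 ± 0.35, adjusted p = 0.00615), where LIDPAD library 1 lay above the lowest control. Cyp2c29 was 878.5, 681 and 488 FPM in control and 193, 363 and 431 FPM in LIDPAD at week 16 (log2 -1.09 ± 0.28, adjusted p = 0.0125). Its week 32 call (-0.79, adjusted p = 0.0494) was lost on leaving out any 1 of 7 libraries.

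Cyp2c50, 96.1% identical to Cyp2c37, was not called in any week, with log2 values from 0.80 at week 4 to -1.08 at week 32 (adjusted p = 0.064). Cyp2c23, also named Cyp2c44, an epoxygenase that makes epoxyeicosatrienoic acids, was lower at week 16 (-0.81, adjusted p = 0.00402). Cyp2c55, a CAR and PXR target, was 2.07, 2.00, 0.627 and 1.51 FPM in control and 2.66, 46.4, 38.1, 3.48 and 3.73 FPM in LIDPAD at week 32 (log2 2.34 ± 0.81, adjusted p = 0.0522). The groups did not overlap, and LIDPAD libraries 2 and 3 held most of the difference.

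Cyp2d genes, relatives of human CYP2D6, were lower late and called in no week before week 16. Of 7 tested, 4 were lower at week 16, 4 at week 32 and 5 at week 48, and none was higher in any week. Cyp2d9, the testosterone 16-alpha-hydroxylase that is known to be higher in male liver, was 535, 645 and 498 FPM in control and 237, 468 and 284 FPM in LIDPAD at week 16 (log2 -0.81, adjusted p = 0.0141), a call lost without LIDPAD library 1 or 3.

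At week 32 Cyp2d9 was 416, 341, 670 and 431 FPM in control and 27.9, 119, 120.4, 273 and 216 FPM in LIDPAD (log2 -1.92 ± 0.54, adjusted p = 0.0225). At week 48 the controls were 768, 767 and 216 FPM and the LIDPAD libraries 221.5, 189, 278 and 250 FPM (log2 -1.11, adjusted p = 0.135). The week 48 overlap came from control library 3, without which the difference was -1.72 ± 0.13 (adjusted p = 6.24e-06), while at week 32 the groups did not overlap, the call was lost without control library 3 (-1.72, adjusted p = 0.0688), and without LIDPAD libraries 1 and 2 the value was -1.23 ± 0.29 (adjusted p = 0.0135).

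Cyp2d10 was 450.01, 393.5, 467 and 342 FPM in control and 137, 269.9, 172, 199 and 193 FPM in LIDPAD at week 32 (log2 -1.11 ± 0.19, adjusted p = 0.00172), between -0.55 at week 16 (adjusted p = 0.00418) and -0.78 at week 48 (adjusted p = 0.0406). Leaving out any 1 library of week 48 other than control library 3 ended that week's calls of Cyp2d10, Cyp2d11, Cyp2d22, Cyp2d26, Cyp2b9, Cyp2c70 and Cyp2r1. Its close copy Cyp2d11 was lower at the same weeks by the same test, with -0.64, -0.96 and -0.93, the week 32 call being lost on rescaling. Their summed FPM in LIDPAD was 0.685, 0.473 and 0.562 of the control mean at weeks 16, 32 and 48, with no overlap in any of the 3 weeks.

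Cyp2d12 was 11.0, 8.99 and 8.37 FPM in control and 2.71, 2.49, 4.29 and 3.37 FPM in LIDPAD at week 48 (log2 -1.44 ± 0.19, adjusted p = 0.00961), with no overlap. Cyp2d40 was called lower at week 32 only (-1.56, adjusted p = 0.0123), Cyp2d26 at week 48 only (-0.54, adjusted p = 0.0383), and Cyp2d22 at week 16 (-0.51, adjusted p = 0.00209) and week 48 (-0.62, adjusted p = 0.019). Cyp2d34 stayed under 1.37 FPM and was not tested.

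Cyp2e1 was called in no week with all libraries. It was 2390 and 1377 FPM in control and 3465 and 3980 FPM in LIDPAD at week 4 (log2 1.03, adjusted p = 0.422). At week 16 it was 4889, 5697 and 3727 FPM in control and 2766, 4490 and 3431 FPM in LIDPAD (log2 -0.43, adjusted p = 0.188). Every LIDPAD library was above the controls at week 4 and the ranges overlapped at week 16.

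At week 32 Cyp2e1 was 2308, 1451, 2763 and 3539 FPM in control and 301, 414, 938, 2542 and 2285 FPM in LIDPAD (log2 -1.37 ± 0.61, adjusted p = 0.125). LIDPAD libraries 1, 2 and 3 lay below all controls and libraries 4 and 5 among them. Libraries 1 to 3 of both diets were also 1 of the 2 sets by column split described below. Within that set the difference was -2.10 ± 0.44 (adjusted p = 0.0118). Without LIDPAD libraries 1 and 2 it was -0.44 ± 0.40 (adjusted p = 0.464), and without library 3 as well 0.01 ± 0.32 (adjusted p = 0.987). At week 48 it was 3900, 5644 and 527 FPM in control and 2400, 3219, 2905 and 3184 FPM in LIDPAD (log2 0.36, adjusted p = 0.802), and without control library 3 the value was -0.69 (adjusted p = 0.0177).

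Cyp2f2 fell at weeks 16, 32 and 48. It encodes the enzyme that activates naphthalene in the mouse and marks the cells around the portal vein, opposite to Cyp2e1. It was 203 and 215 FPM in control and 235 and 260 FPM in LIDPAD at week 12 (log2 0.24), not called. At week 16 it was 217, 181.5 and 214 FPM in control and 121, 164 and 163 FPM in LIDPAD (log2 -0.46, adjusted p = 0.0227), a call lost on rescaling and on leaving out control library 1 or 3 or LIDPAD library 1.

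At week 32 the Cyp2f2 controls were 265, 283, 319 and 231 FPM and the LIDPAD libraries 59.8, 192, 141, 118 and 79.8 FPM (log2 -1.32 ± 0.29, adjusted p = 0.00668). At week 48 the controls were 192, 224 and 251 FPM and the LIDPAD libraries 37.2, 43.3, 35.6 and 34.6 FPM (log2 -2.54 ± 0.12, adjusted p = 0.000225). The groups did not overlap from week 16 on. Control library 3 of week 48 was the highest of the Cyp2f2 controls, and without it the difference was -2.45 ± 0.10 (adjusted p = 1.18e-07).

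Cyp2u1, a fatty acid hydroxylase, was called lower at weeks 12, 16 and 32. The week 12 call (-0.68, adjusted p = 0.00885) was lost without LIDPAD library 2 (-0.65, adjusted p = 0.0673) and on rescaling (-0.48, adjusted p = 0.0933). It was 64.9, 63.1 and 56.4 FPM in control and 26.6, 38.5 and 27.8 FPM in LIDPAD at week 16 (log2 -0.99 ± 0.14, adjusted p = 0.000356). At week 32 it was 54.7, 44.8, 74.9 and 38.7 FPM in control and 2.41, 5.06, 9.96, 15.9 and 16.6 FPM in LIDPAD (log2 -2.60 ± 0.47, adjusted p = 0.00242). The groups did not overlap, and without LIDPAD libraries 1 and 2 the week 32 value was -1.86 ± 0.24 (adjusted p = 0.000643).

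At week 48 Cyp2u1 was 75.9, 50.4 and 14.8 FPM in control and 18.7, 10.9, 12.3 and 10.5 FPM in LIDPAD (log2 -1.56, adjusted p = 0.0846). One LIDPAD library was above control library 3, without which the difference was -2.24 ± 0.22 (adjusted p = 2.76e-05).

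Among Cyp2j genes, epoxygenases of arachidonic acid, Cyp2j9 was 7.79, 15.5 and 9.28 FPM in control and 3.18, 2.52 and 4.48 FPM in LIDPAD at week 16 (log2 -1.52 ± 0.25, adjusted p = 0.00116), with no overlap. It was lower also at week 12 (-1.08) and week 32 (-1.22, adjusted p = 0.00588). Cyp2j5 was lower at week 16 only (-0.59, adjusted p = 0.00281). Cyp2j6 was called in no week, its log2 difference lying between -0.13 and 0.24 with adjusted p of at least 0.335, which does not show that it was the same in both diets. Cyp2r1, a vitamin D 25-hydroxylase, was lower at week 16 (-0.74, adjusted p = 0.00059) and week 48 (-0.54, adjusted p = 0.0217).

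**Figure D3:**
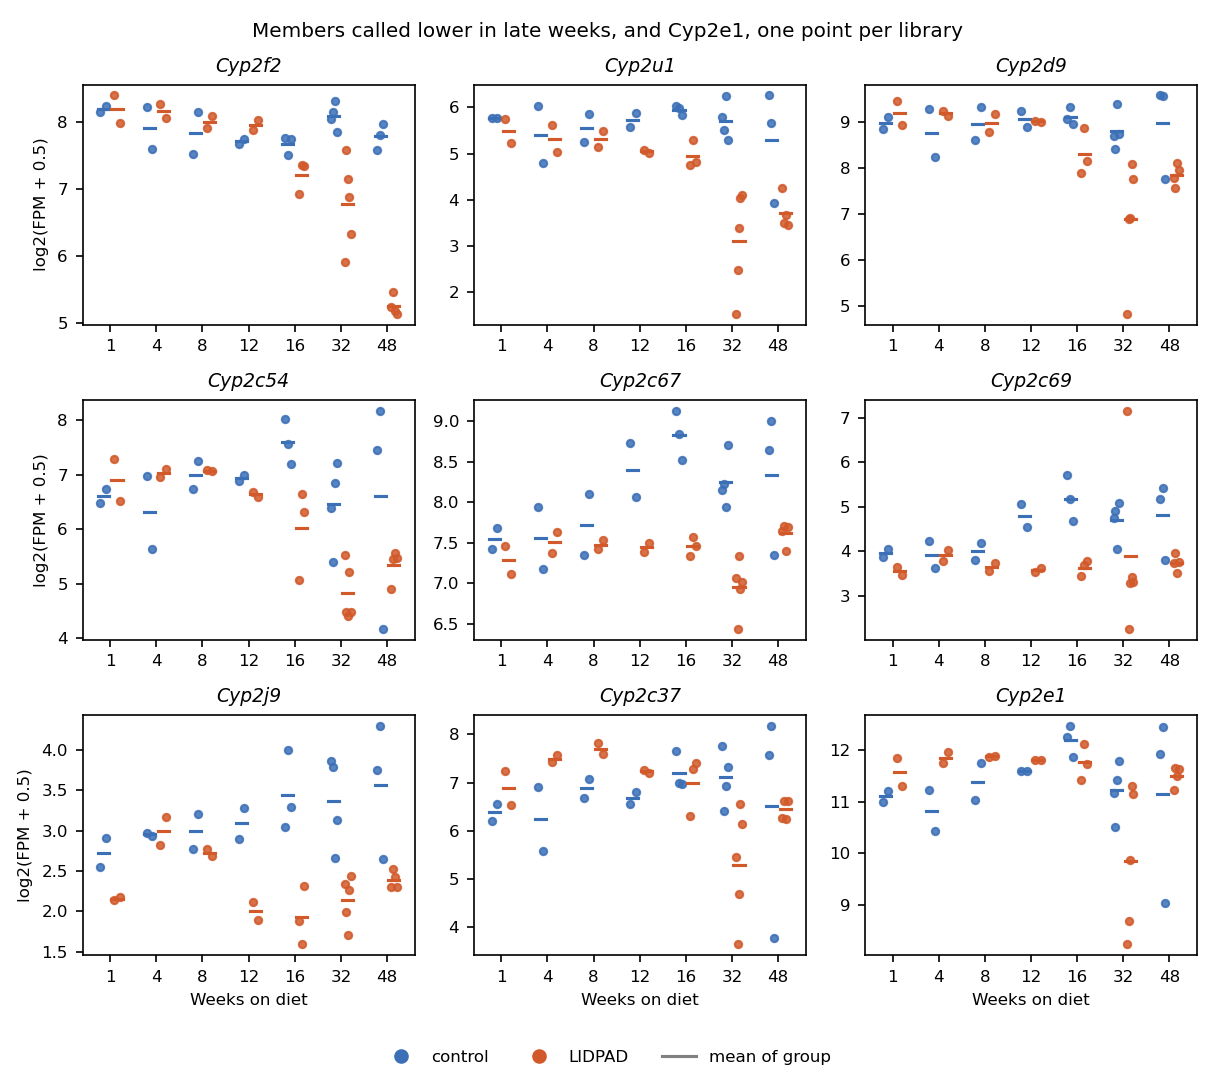
Level as log2(FPM + 0.5) (vertical axis, a separate scale for each gene) of 8 members called lower in at least 1 week, and of Cyp2e1, against weeks on diet; each point is 1 library, blue control and orange LIDPAD, and bars are group means. Cyp2f2 separates the diets most widely at week 48, and 1 week 32 LIDPAD library of Cyp2c69 at 143 FPM stands above the controls.

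Whether the diet difference itself changed with time was tested in 1 limma fit of all 14 groups. An F test that the difference is equal in all 7 weeks called 4 of 33 members, against 11.6% of all genes tested: Cyp2f2 (adjusted p = 0.000181), Cyp2a22 (0.00862), Cyp2d26 (0.0197) and Cyp2d10 (0.0226). The mean difference of weeks 16, 32 and 48 was then set against that of weeks 1, 4, 8 and 12, which called 15 of 33 members, against 17.2% of all genes. It was higher late in Cyp2a22 (0.67) and Cyp2c39 (0.95), and lower late in 13 members, where 11.6% of all genes were called higher and 5.53% lower.

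Among those 13, the late minus early values were largest in Cyp2c54 (-1.69, adjusted p = 0.0169), Cyp2f2 (-1.60, adjusted p = 4.57e-05), Cyp2d9 (-1.43), Cyp2u1 (-1.40) and Cyp2c29 (-1.37). For Cyp2f2 the mean log2 difference was 0.16 early and -1.44 late. The median late minus early value over the 33 members was -0.64. After rescaling each library to 1000000, the F test called 2 members, against 10.3% of all genes, and the late against early test 2 higher and 9 lower, against 19.1% of all genes, 17.6% higher and 1.47% lower. Without the 3 libraries that stood apart, the F test called 22 members, against 21.6% of all genes, and the late against early test 25, 3 higher and 22 lower, against 29.2% of all genes, 18.5% higher and 10.8% lower.

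**Figure D4:**
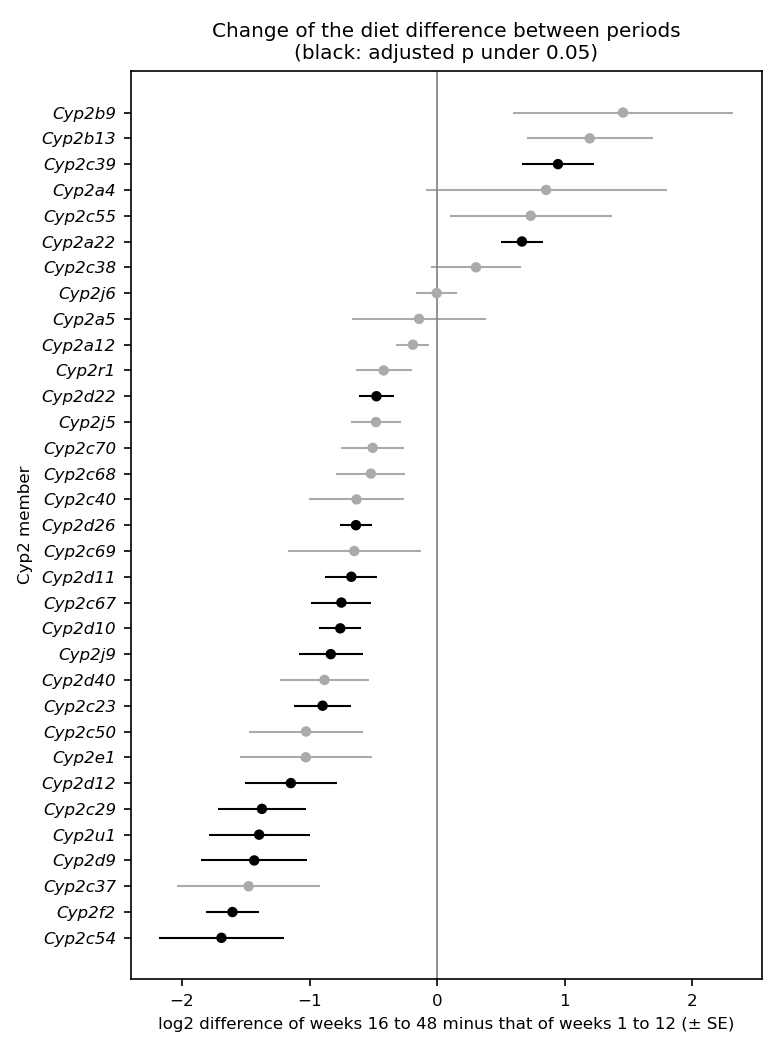
Late minus early log2 difference ± SE (horizontal axis; mean diet difference of weeks 16, 32 and 48 minus that of weeks 1, 4, 8 and 12) for the 33 tested members (vertical axis). Black points have a limma adjusted p under 0.05; 13 of the 15 lie below 0, and Cyp2a22 and Cyp2c39 above it.

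The week 32 and week 48 counts depend on the libraries that stood apart. At week 48 without control library 3, 31 of 33 members were called, 8 higher and 23 lower, leaving only Cyp2a12 and Cyp2j6 without a call. In that fit 37.7% of all genes were called, 3377 higher and 2337 lower of 15153. Cyp2c54 then reached -2.47, Cyp2b9 2.91, Cyp2c29 -1.78 and Cyp2c55 1.117. At week 32 without LIDPAD libraries 1 and 2, 20 members were called, 5 higher and 15 lower. Of all genes 24.9% were then called, 2385 higher and 1156 lower of 14217. Cyp2a5, Cyp2c23, Cyp2c40, Cyp2c68, Cyp2c69 and Cyp2d22 were added and Cyp2c37 was lost. Leaving out LIDPAD library 3 as well gave 15 (20.1% of all genes). At week 32 mitochondrial ribosomal RNA took 21.2, 18.5, 18.3 and 23.0% of reads in control and 25.5, 30.2, 20.9, 26.5 and 26.5% in LIDPAD, 4 LIDPAD libraries lying above every control, and its part in the week 32 differences was not tested.

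Week 32 libraries also fell into 2 sets by how reads were divided among their 4 deposited columns, a split that no label names as a batch. Within the set that holds control libraries 1 to 3 and LIDPAD libraries 1 to 3, 19 members were called, 4 higher and 15 lower. There 23.0% of all genes were called, 2236 higher and 1025 lower of 14150. The other set held 1 control library, too few to give a spread of its own. This split also followed feeding time. All week 16 libraries were divided like the first set, all week 48 libraries like the other, and those of weeks 1 to 12 in a further way. A change of the diet difference from early to late weeks therefore cannot be told apart from a change with this split.

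The mean summed FPM of all Cyp2 members was above control in LIDPAD at weeks 1 to 12 and below it at weeks 16 to 48, but single libraries overlapped at weeks 1, 12, 16, 32 and 48. At week 48 the overlap came from control library 3 (5151 FPM). The other controls were 10095 and 12550 FPM, against 5498 to 6833 FPM in LIDPAD. At week 32 LIDPAD libraries 4 and 5 lay above the lowest control. Mean sums were 6378 FPM in control and 7940 FPM in LIDPAD at week 1, 10850 and 8061 FPM at week 16, 7123 and 4394 FPM at week 32, and 9266 and 6343 FPM at week 48. The ratio of LIDPAD to control was 1.24, 1.45, 1.23, 1.04, 0.743, 0.617 and 0.685 from week 1 to week 48, and without Cyp2e1 it was 1.16, 1.22, 1.16, 0.973, 0.740, 0.672 and 0.578. Cyp2e1 made up 10.2 to 48.0% of the summed Cyp2 FPM in control libraries and 8.37 to 47.4% in LIDPAD libraries. At week 16 the sums ran from 8884 to 11870 FPM in control and from 6399 to 9478 FPM in LIDPAD, and at week 32 from 5033 to 8608 and from 3337 to 5752 FPM. These sums carry no test and weight genes by their level and length.

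**Figure D5:**
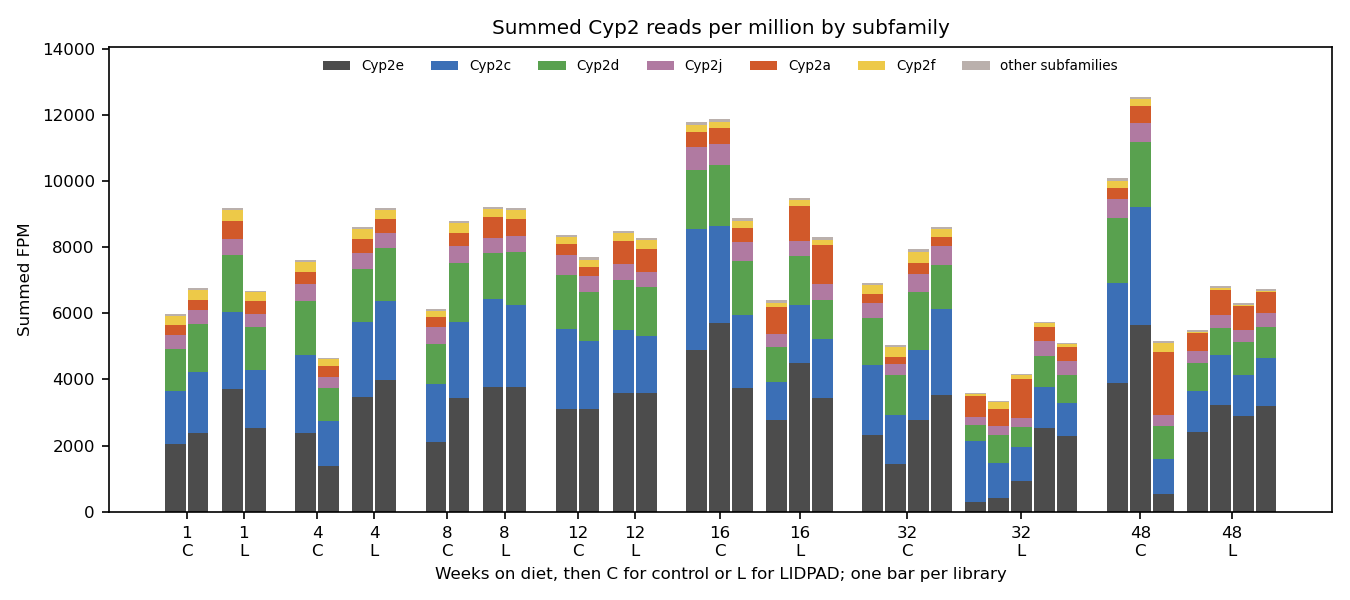
Summed FPM of the Cyp2 members (vertical axis) in each of the 38 libraries, grouped by weeks on diet and diet (horizontal axis; C control, L LIDPAD), coloured by subfamily. At week 32 LIDPAD libraries 1, 2 and 3 have the shortest bars with little Cyp2e, and week 48 control library 3 has little Cyp2e and much Cyp2a.

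By known features, the counts were as follows, and the shares in brackets are of all genes tested in that week. Of 9 CAR targets, 3 of 7 tested were higher and none lower at week 12 (8.99% higher, 6.25% lower), with a median log2 of 0.52. At week 32, 1 of 7 was higher and 3 lower (18.0% higher, 8.82% lower), with a median of -0.79, and at week 48, 1 of 8 was higher and none lower (6.54% higher, 3.34% lower). Of 6 members of the central vein region, 2 were higher at week 12, 3 lower at week 32 and none called at week 48, against the same shares. Of 9 members known to be higher in female liver, 4 of 6 tested were higher and 2 lower at week 16 (16.3% higher, 12.0% lower), the lower ones being Cyp2c40 and Cyp2c69. The female list had 3 of 6 higher at week 32 and 2 of 7 at week 48, with none lower. All 4 members known to be higher in male liver, Cyp2d9, Cyp2u1, Cyp2j5 and Cyp2c23, were lower at week 16 (12.0% lower), 2 of them at week 32 (8.82% lower) and none at week 48. Without control library 3 of week 48, 37.7% of all genes were called, 3377 higher and 2337 lower of 15153. The 4 male-liver members were then lower: Cyp2d9 (-1.72), Cyp2u1 (-2.24), Cyp2j5 (-0.65) and Cyp2c23 (-0.95). Of the 6 members of the central vein region, Cyp2c29 (-1.78), Cyp2c37 (-1.43), Cyp2c50 (-1.15), Cyp2c54 (-2.47) and Cyp2e1 (-0.69) were lower, and Cyp2a5 (1.39) was higher. Cyp2c40 and Cyp2c69 were lower too, and Cyp2a4, Cyp2a5, Cyp2b9, Cyp2b13, Cyp2c38, Cyp2c39 and Cyp2c55 were higher.

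Of 21 regulators and redox partners tested, 6 were higher and 5 lower at week 16 (16.3% and 12.0% of all genes), and 1 was higher and 6 lower at week 32 (18.0% and 8.82% of all genes). Por, the oxidoreductase that all microsomal P450s need, rose from 31.0 to 106 FPM at week 1 (log2 1.76, adjusted p = 0.00106). Alas1, the first enzyme of haem synthesis, rose from 95.7 to 417 FPM at week 16 (log2 2.12, adjusted p = 1.34e-05) but was lower at week 32 (-1.24, adjusted p = 0.0329). Hnf4a fell from 469 to 237 FPM at week 32 (-0.98, adjusted p = 0.000544).

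Of 24 P450s of other families, 6 were higher and 7 lower of 23 tested at week 16 (16.3% and 12.0% of all genes), and 5 higher and 6 lower of 24 at week 32 (18.0% and 8.82%). Cyp3a11, the main Cyp3a enzyme and a PXR target, rose from 426 to 2317 FPM at week 16 (log2 2.46, adjusted p = 8.86e-06), and Cyp4f14, a fatty acid omega-hydroxylase, fell from 224 to 71.4 FPM (-1.66, adjusted p = 2.22e-05). Of 19 conjugating enzymes, none was higher and 6 of 17 tested were lower at week 16, where 12.0% of all genes were lower, among them Sult2a8, a bile acid sulfotransferase (435 to 160 FPM, log2 -1.54, adjusted p = 0.00134). At week 32, 2 of 17 were lower, near the 8.82% of all genes, and at week 48, 5 of 17 (3.34% of all genes), with none higher.

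Markers of cell types moved too, some of them before week 16. Recruited macrophage markers were higher in 4 of 6 at week 8 (3.85% of all genes higher) and 5 of 6 at week 12 (8.99%). At week 12, 5 of 7 stellate cell and fibroblast markers were higher and 4 of 7 hepatocyte markers lower (6.25% of all genes lower). At weeks 16, 32 and 48, 16.3, 18.0 and 6.54% of all genes were higher and 12.0, 8.82 and 3.34% lower. The 8 hepatocyte markers summed to 82958 to 95191 FPM in the week 16 controls, and to 47675 to 54973 FPM in LIDPAD, with 5 of 7 tested markers lower and a median log2 of -1.02. At week 32 the hepatocyte sum ran from 93785 to 111103 FPM in control and from 39876 to 115486 FPM in LIDPAD, so that the highest LIDPAD library lay above every control, with 4 of 7 lower and a median of -1.002. At week 48 it ran from 75076 to 98608 FPM in control and from 41096 to 50776 FPM in LIDPAD, with 1 of 7 lower. Recruited macrophage markers summed to 29.5 to 30.5 FPM in control and 191 to 276 FPM in LIDPAD at week 16, with 6 of 6 higher, and to 21.1 to 58.0 against 287 to 726 FPM at week 32, again 6 of 6.

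Stellate cell and fibroblast markers summed to 298 to 365 FPM in control and 759 to 831 FPM in LIDPAD at week 16, with 6 of 7 higher, and 4 and 7 of 7 were higher at weeks 32 and 48. Cholangiocyte markers were higher in 4 of 5 at week 32 and lymphocyte markers in 4 of 6 at week 48. Of 6 Kupffer cell markers, 2 were higher and 1 lower at week 16. Of 6 sinusoidal endothelial markers, 1 was higher and 1 lower at week 16. None of 5 erythroid markers was called at weeks 16, 32 and 48. Of 5 adipocyte markers, Cfd was tested and higher in every week, and Lep was at 0 in all libraries of weeks 1, 8, 16, 32 and 48. The part of these shifts in the Cyp2 differences was not tested.

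The clock genes Arntl and Dbp, which peak at opposite times of day, also differed. The log2 ratio of Arntl to Dbp was on average 3.40 in control and -0.89 in LIDPAD at week 1, 4.17 and -0.61 at week 4, 3.87 and 0.01 at week 8, and 1.42 and -1.79 at week 12. It was -2.37 and -3.18 at week 16, 3.71 and 2.698 at week 32, and 0.34 and -2.07 at week 48. The gap was wider at weeks 1 to 12 than at weeks 16 and 32, and its part in the Cyp2 differences was not tested.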

How the data were processed

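Per the labels' protocols, liver RNA was taken with TRIzol and cleaned on columns, and a sequencing company made the libraries. The authors' deposited values are FPM, a size-factor scaled signal per 1000000 reads, in 7 tables normalized separately, 1 per week. Per the submitters' processing notes the tools included HISAT2, featureCounts and DESeq2 and the build GRCm38, with no role or version stated.

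Values were multiples of 1 read in 100% of cases within 0.02 reads, and this held in a few columns only after a step of their own was set. Columns with a chi-square per gene under 2.5, over genes of 200 to 2000 pooled reads, were merged, which turned 152 deposited samples into 38 libraries. Within a set it was 1.97 to 2.27, where independent reads would give 1 and reads counted in pairs 2, and between sets at least 2.54, so the gap at the limit is narrow. A value worth 2 reads occurred 5.35 times as often as a value worth 1.

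For every week a separate limma model (version 3.58.1, R 4.3.3) with a mean-variance trend was run on log2(library mean FPM + 0.5), for genes that passed the 1 FPM filter described above, with Benjamini-Hochberg adjustment over all genes. A joint limma fit of 14 group means gave the F test (6 degrees of freedom) and the late minus early contrast. Other settings tried were a pseudocount of 0.1 or 1, leaving the filter out or raising it to 5 FPM, library totals set to 1000000, edgeR 4.0.16 and DESeq2 1.42.0 on recovered reads, a replicate block, leaving out each library, fits by column split and each column as a sample. Fits without the libraries that stand apart were added after seeing the data. The procedure was tested on simulated data.

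Members, lists and named genes were chosen with earlier results of these data known. Members named are those on an index list of 32 and all called in a week. List genes named are among the 2 smallest p in that week, except Alas1 at week 32, which was chosen after its values were seen. Coding identity was computed from the GENCODE transcripts and annotation of GRCm38, promoters were taken from RefSeq, and Python 3.11.15, pandas 2.3.3, numpy 2.4.6, Biopython 1.88 and matplotlib 3.10.9 were used. Mitochondrial ribosomal RNA took 18.3 to 30.2% of reads.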

Additional observations from a re-analysis of the deposited data

Results flagged for a closer look

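Single libraries stood far from the others of their group in 11 of 101 tested groups of members (gap over range above Dixon's critical value). Chance gives about 1 in 20 if groups are independent, but members share libraries and some are close copies. No share over all genes is given beside this count. All 11 lay in the larger groups of weeks 32 and 48. The smaller groups were not covered, so week 48 control library 3, which stood apart above, could not be flagged here. At week 32, LIDPAD library 1 was high for Cyp2c40 (188 FPM), Cyp2c68 (264.5 FPM), Cyp2c69 (143 FPM), Cyp2c70 (454 FPM) and Cyp2g1 (1.09 FPM), and LIDPAD library 2 for Cyp2b10 (23.4 FPM). Among week 32 controls, library 2 was low for Cyp2a22 (3.57 FPM) and Cyp2c29 (231 FPM), library 1 high for Cyp2b9 (4.77 FPM) and library 3 high for Cyp2d12 (8.48 FPM). At week 48, LIDPAD library 1 was low for Cyp2c55 (2.11 FPM).

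Diet differences that varied over the 7 weeks by the limma F test were those of Cyp2f2 (adjusted p = 0.000181), Cyp2a22 (0.00862), Cyp2d26 (0.0197) and Cyp2d10 (0.0226). Weeks 16 to 48 differed from weeks 1 to 12 by limma in Cyp2f2 (adjusted p = 4.57e-05), Cyp2d26 (0.00107), Cyp2d10 (0.00248), Cyp2c23 (0.00628), Cyp2c29 (0.00665), Cyp2a22 (0.00701), Cyp2d22 (0.0148), Cyp2u1 (0.0154), Cyp2c54 (0.0169), Cyp2d9 (0.0172), Cyp2c39 (0.0196), Cyp2j9 (0.0213), Cyp2d11 (0.0216), Cyp2d12 (0.0271) and Cyp2c67 (0.0272).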

How the results depend on the processing

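On leaving out 1 library, 3 values were counted as reversed, a label given only where the value of the other sign was also called. They ran from -1.34 to 1.30 for Cyp2a4 at week 4, from -1.31 to 1.92 for Cyp2a4 at week 48 and from -0.69 to 1.02 for Cyp2e1 at week 48. The ends at 1.30, 1.92 and -0.69 were without control library 2, 3 and 3. Other values turned sign without that label, such as Cyp2d10 at week 4, at 0.10 with all libraries and -0.26 without control library 2. Counts of members called that moved over 1.5 times were as follows. With each column as its own sample, which treats parts of a library as replicates, they were 17, 14, 15, 26, 29 and 24 at weeks 1, 4, 8, 12, 32 and 48, where 22.9, 22.6, 37.3, 40.1, 52.7 and 39.0% of all genes were called. DESeq2 gave 2, 7 and 19 at weeks 4, 8 and 48 (2.33, 9.52 and 16.4% of all genes), rescaling 7 at week 8, no filter 1 at week 4 (0.374%), and the smaller column set of week 32 alone 30 (46.6%), with 1 control library that is assumed to vary like the LIDPAD libraries. Leaving out 1 library each, which to week 12 leaves 1 library in a group under the same assumption, counts ran from 0 to 9 at week 1, 0 to 12 at week 4, 0 to 14 at week 8 and 3 to 31 at week 48. Rescaling left 2 members called by the F test (10.3%), and leaving out the 3 libraries that stood apart gave 22 by the F test and 25 by the late against early test. Same-numbered libraries did not deviate together (r from -0.116 to 0.123 at weeks 16 to 48), so numbers do not pair them, and the replicate block gave 2, 2 and 1 members at weeks 4, 8 and 48 (2.78, 3.84 and 0.103%). Over single members, 2714 values under an alternative kept their side of the threshold, 212 passed it newly, 129 lost it and 3 reversed. Those 2714 include values that turned sign without being called, so they are no count of values with an unchanged direction. Of the calls made, 0 of 2, 0 of 4, 11 of 14, 19 of 24, 11 of 15 and 3 of 11 at weeks 1, 8, 12, 16, 32 and 48 were kept whichever library was left out, the 3 at week 48 being Cyp2a22, Cyp2f2 and Cyp2d12. The causes were not tested. With 2 libraries per group to week 12, the spread rests on all genes.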
